A study of Mus musculus with 96 samples.

Results

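The mature arms of the mouse microRNA miR-21a, mmu-miR-21a-5p and mmu-miR-21a-3p, were followed in cells of the heart other than hematopoietic cells over the month after acute myocardial infarction (AMI). Both rows were found by name in every deposited table and are 2 of the 1978 mature miRNAs listed, of which 1561 had a count in at least 1 library. The series holds 96 small RNA libraries, 4 for each of 4 cell types at each of 6 days. The 72 libraries of cardiomyocytes (CMs), endothelial cells (ECs) and fibroblasts (FBs) are described here, and the 24 of hematopoietic cells (HCs) serve as reference. All cells came from male C57Bl/6J mice of 12 to 14 weeks. AMI was made by lasting ligation of the left anterior descending coronary artery, and hearts were taken at 1, 3, 7, 14 and 28 days (D1 to D28), while D0 mice had no surgery, so that D0 does not control for the operation itself. CMs were separated by centrifugation, HCs with beads against CD45, ECs with beads against CD144, and FBs by plating, which left mostly DDR2-positive cells. RNA of 3 mice, or of 2 where one was missing, was pooled for each library, and p-values measure the spread between such libraries. Libraries took 500 ng of RNA and 14 PCR cycles for CMs, 50 ng and 16 cycles for ECs, and 150 ng and 15 cycles for FBs and for HCs, and were made in batches by cell type. A difference between cell types and one between batches, inputs or cycle numbers therefore cannot be told apart, whereas the days of one cell type share all of these.

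A miRNA hairpin is cut by Dicer into a duplex of its 5p and 3p arms, and one arm is usually loaded into Argonaute while the other is lost. For miR-21 the 5p arm is the guide in most tissues, and the 3p arm is the passenger strand. miR-21-5p lowers the proteins made from targets such as Pdcd4 and Spry1, is transcribed under STAT3 and AP-1, and is known as abundant in leukocytes and fibroblasts and as a miRNA of cardiac injury and fibrosis.

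The mature sequences of both arms and of the related miR-21b and miR-21c are shown because the counts rest on telling them apart. They are from RefSeq (build GRCm38.p6), with the seed, bases 2 to 8, in capitals.
mmu-miR-21a-5p: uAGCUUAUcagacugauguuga
mmu-miR-21a-3p: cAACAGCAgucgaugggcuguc
mmu-miR-21b: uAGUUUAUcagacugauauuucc
mmu-miR-21c: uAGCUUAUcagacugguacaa
The 2 arms have 22 bases each and share no seed. miR-21c holds the seed of miR-21a-5p and first departs from it at A16G, counted from the 5′ end. miR-21b has another seed, through C4U, and differs again at G18A, G21U and A22C. miR-21c had at most 1 count in any library, and miR-21b averaged 0.760 CPM (counts per 1000000 mature counts) in CMs against 0.744 in ECs, 1.75 in FBs and 17.5 in HCs, so neither row held more than a small part of the family. No other row of the tables had counts identical to those of either arm. The hairpin lies on the minus strand at chr11:86584067-86584158, where the Mir21a gene is inside exon 12 and the UTR of Vmp1-201, on the same strand. The 5p arm is at chr11:86584120-86584141 and the 3p arm at chr11:86584082-86584103.

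Depth ranged from 3327351 to 24279105 mature counts per library in CMs, from 525651 to 29037628 in ECs, from 2217588 to 65588543 in FBs and from 18286 to 29504666 in HCs. The shallowest library was replicate 3 of HCs at D0. Markers matched the labels in CMs, ECs and FBs: cardiomyocyte miRNAs (4 listed, such as miR-1a-3p) summed to 311247 to 709040 CPM in CMs, the endothelial miR-126a arms to 103768 to 234295 CPM in ECs, and the fibroblast list (miR-199a-3p, miR-199a-5p and miR-214-3p) to 40646 to 88869 CPM in FBs. ECs also held 20924 to 162111 CPM of the cardiomyocyte list, and FBs held 14696 to 44946 CPM of the miR-126a arms. HCs, the reference, held 7118 to 26033 CPM of a leukocyte list (5 miRNAs, such as miR-142a-3p). They also held 25975 to 132287 CPM of the cardiomyocyte list and 14781 to 91837 CPM of the miR-126a arms. At D0 in HCs these 2 sums were 85776 to 132287 and 54905 to 91837 CPM, and at D7 they were 25975 to 45415 and 16579 to 24856 CPM. The part of other cells in the HC level was not tested.

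In CMs, miR-21a-5p was scarce in uninjured hearts and reached its highest level at D7 and D14. The 4 D0 libraries had 499.5, 153, 142 and 161 CPM. At D1 they had 429, 643, 2463 and 2069 CPM, and at D3 they had 3092, 6311, 7239 and 7117. Libraries 1 and 2 of D1 were thus close to D0 and libraries 3 and 4 well above it, and D1 overlapped with D0, whereas all D3 libraries were higher. At D7 the values were 9102, 13651, 7992 and 9673 CPM, at D14 they were 9103, 10376, 11044 and 8761, and at D28 they were 2433, 4452, 4493 and 5241. Every library of D7, D14 and D28 was above every D0 library, with D28 below D7 and D14 on this scale. Mean CPM rose from 239 ± 174 (SD, n = 4) at D0 to 10104 ± 2465 at D7, which is 42.3-fold, and stood at 17.4-fold at D28. The miRNA held rank 46 to 67 by count at D0 and rank 20 to 25 at D7.

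The size of that fold depended on how libraries were scaled. TMM is a scaling by which most miRNAs are taken not to change, and on the TMM scale the mean at D7 was 8.61-fold that at D0. The TMM factors of CMs ran from 0.289 to 0.357 at D0 and from 1.91 to 2.04 at D14, while the cardiomyocyte list summed to 603382 to 709040 CPM at D0 and 311247 to 419381 CPM at D14. The fall of this sum was not one of all its members. With TMM, 3 of the 4 were called higher by edgeR at D14 and 1 lower, beside 38% and 29.1% of all miRNAs. Their median log2 change was 1.12. At D1 the TMM factors were 0.491 and 0.543 for replicates 1 and 2, and 1.07 and 1.04 for replicates 3 and 4. The split of D1 was thus also one of the whole libraries. On the TMM scale miR-21a-5p was at 874, 1185, 2297 and 1996 CPM in these 4. With TMM, the median log2 change of all 484 miRNAs tested in CMs was 0.20, 0.44, 0.35, 0.41 and 0.25 at D1 to D28, and by library size it was 1.42, 2.37, 2.67, 2.99 and 1.99. With TMM, miR-21a-5p was called higher than at D0 on all 5 days (edgeR's quasi-likelihood test, Benjamini-Hochberg adjustment, threshold 0.05). The log2 change was 1.13 (SE 0.33, adjusted p = 0.0180) at D1, 2.70 (SE 0.35, adjusted p = 2.60e-06) at D3 and 3.11 (SE 0.36, adjusted p = 4.07e-07) at D7. It was 2.78 (SE 0.35, adjusted p = 7.16e-07) at D14 and 2.35 (SE 0.35, adjusted p = 2.52e-05) at D28. Calls were common in CMs, where 13.6%, 31.8%, 38.8%, 38% and 29.5% of miRNAs were called higher on these days and 11.4%, 23.3%, 30.2%, 29.1% and 24.8% lower. The call at D1 was lost without replicate 3 of D1 (log2 change 0.86, adjusted p = 0.0762), and it was 1.75 without replicate 1 of D0, the highest of its group. On the TMM scale too, the libraries of D3 to D28 lay above all of D0 and those of D1 did not, and the share of miRNAs wholly above D0 was 4.55%, 19%, 31.4%, 30% and 23.8% from D1 to D28. Between consecutive days D3 against D1 was called, at 1.58 (adjusted p = 0.00288), where 8.26% were called higher. D28 against D14 was not called with TMM over the 24 libraries, but was called by library size (−1.24, adjusted p = 0.0447) and with only the libraries of the days compared (−0.55, adjusted p = 0.0396).

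In ECs, miR-21a-5p started higher than in CMs on CPM and was highest at D3 and D7. The D0 libraries had 2816, 1834, 2554 and 2242 CPM, those of D1 had 4908, 4358, 3227 and 3454, and those of D3 had 12209.6, 13208, 12041 and 11221. D1 and D3 lay wholly above D0, and the D3 libraries were close to each other. The D7 libraries had 13408, 13793, 9863 and 6766 CPM, the D14 libraries had 6966, 6296, 9439 and 3319, and the D28 libraries had 4899, 1444, 987 and 6354. D7 and D14 were above D0, while D28 had 2 libraries above and 2 below it. Mean CPM was 2361 ± 423 (SD, n = 4) at D0, 12169.9 ± 816 (5.15-fold) at D3, and 3421 ± 2622 at D28.

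The rise in ECs was called at D3, with a log2 change of 2.34 (SE 0.44, adjusted p = 0.000299), and at D7, with 1.86 (SE 0.43, adjusted p = 0.00166). Of 421 miRNAs tested, 15.4% and 17.8% were called higher on these days. At D14 the change was 1.27 (SE 0.43, adjusted p = 0.0444), where 11.4% were called higher. That call held without replicate 4 of D14 (1.52, adjusted p = 0.0186) and was lost when any other library of D0 or D14 was left out, with log2 changes of 1.02 to 1.35. At D1 edgeR called 0% of miRNAs, with 17 at an unadjusted p under 0.05 and 5 called by DESeq2. There miR-21a-5p changed by 0.76 (95% interval −0.12 to 1.65, adjusted p = 0.993). At D28 the change was 0.66 (adjusted p = 0.198, with 26.8% called higher), and it rested on single libraries: it was 1.00 (adjusted p = 0.0281) without replicate 3 and −0.08 without replicate 4. On the TMM scale the libraries of D1, D3 and D7 lay above all of D0 and those of D14 and D28 did not, and 4.99%, 24%, 19.7%, 16.9% and 17.6% of miRNAs were wholly above D0 from D1 to D28. D28 replicates 1 and 3 were shallow, at 525651 and 636084 mature counts.

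In FBs, miR-21a-5p was already abundant at D0 and rose further from D3 on. The D0 libraries had 9251, 7588, 14744 and 15248 CPM, the D1 libraries had 21686, 18744, 13746 and 27575, and the D3 libraries had 64804, 61134.5, 51854 and 37774. Replicate 3 of D1 was within the D0 range, and all D3 libraries were above it. The D7 libraries had 35912, 30049, 40044.5 and 42875 CPM, the D14 libraries had 26846, 33383, 54069 and 47351, and the D28 libraries had 36598, 21788, 26899 and 29609.8. All of these were above D0. Mean CPM rose from 11708 ± 3863 (SD, n = 4) to 53892 ± 12048 at D3, which is 4.60-fold, and was still 2.45-fold at D28. At D3 the miRNA held rank 2, 2, 6 and 11 in the 4 libraries, against 22 to 29 at D0.

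The log2 changes of miR-21a-5p in FBs were 1.87 (SE 0.25, adjusted p = 2.18e-06) at D3, 1.44 (SE 0.24, adjusted p = 4.60e-05) at D7, 1.75 (SE 0.25, adjusted p = 9.72e-06) at D14 and 1.43 (SE 0.24, adjusted p = 0.000342) at D28. These 4 days were called by edgeR, beside 22.9%, 24.5%, 14.4% and 4.8% of 563 miRNAs called higher. At D28 it was one of the few miRNAs still called higher, at rank 6 of 563 by p. D1 was not called, at 0.62 (95% interval 0.12 to 1.13, adjusted p = 0.105, with 5.86% called higher). It passed at 0.80 (adjusted p = 0.0303) by library size and at 0.71 (adjusted p = 0.00352) with no filter on low counts. On the TMM scale the libraries of D3 to D28 lay above all of D0, and from D1 to D28 this held for 7.99%, 19.7%, 19.7%, 14% and 6.39% of miRNAs. D3 exceeded D1 by 1.24 (adjusted p = 0.000453, with 15.3% called higher). None of the 4 calls at D3 to D28 was lost when a library was left out.

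**Figure D1:**
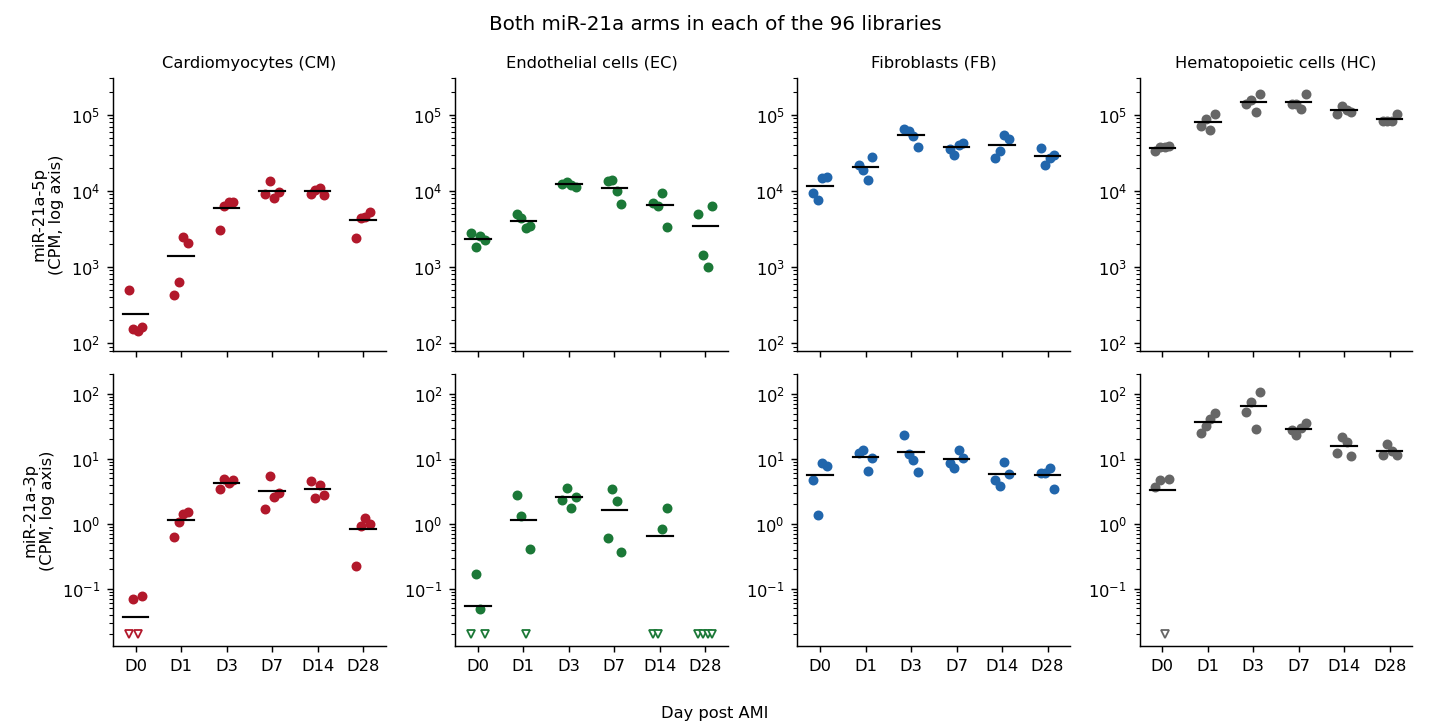
CPM of miR-21a-5p and miR-21a-3p on a log axis against day post AMI, with a point for each library of CMs, ECs, FBs and HCs and a short bar at each group mean; open triangles at the bottom are libraries with no count of the 3p arm. The 5p arm rose from 239 to 10104 CPM in CMs between D0 and D7 and stayed below FBs and HCs of the same day.

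HCs were the reference with the highest level on every day. Mean CPM of miR-21a-5p there went from 36866 at D0 through 81294, 146906, 144961 and 114377 at D1 to D14 down to 87765 at D28, and it was the miRNA with the most counts in every library of D3, D7 and D14. Averaged over the 6 days in a fit of all 96 libraries, the 5p arm was lower than in HCs by 1.07 on the log2 scale in FBs (SE 0.14, adjusted p = 3.68e-11), by 2.74 in CMs (SE 0.15, adjusted p = 2.29e-31) and by 3.28 in ECs (SE 0.15, adjusted p = 7.22e-36). Lower calls against HCs made up 47.6%, 41.9% and 40% of 712 miRNAs in these 3 comparisons. Against FBs, CMs differed by −1.66 and ECs by −2.21, beside 40.9% and 39.9% called lower. The order of CMs and ECs turned with the scaling: CMs were higher by 0.55 with TMM (SE 0.14, adjusted p = 0.000273, with 32.2% called higher) and differed by −0.85 by library size (adjusted p = 1.20e-07).

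The change of miR-21a-5p since D0 was larger in CMs than in HCs. The difference of the 2 log2 changes was 1.63 (SE 0.48, adjusted p = 0.00431) at D3, 1.77 (SE 0.48, adjusted p = 0.00176) at D7, 1.57 (SE 0.48, adjusted p = 0.00621) at D14 and 1.38 (SE 0.48, adjusted p = 0.0204) at D28. Of 712 miRNAs, 31%, 28.2%, 22.2% and 16.6% were called higher in these comparisons. With DESeq2 the D3 difference was 0.90 and lost its call (adjusted p = 0.0922). The median difference over all miRNAs was 1.09, 0.75, 0.49 and 0.37 on these days. The D28 call was lost without replicate 3 or 4 of CMs at D0 (1.16 and 1.25) or replicate 4 of HCs at D0 (adjusted p = 0.0586). At D1 the difference was 0.72 (adjusted p = 0.287, with 21.9% called higher) and 1.23 (adjusted p = 0.0452) without replicate 1 of CMs at D0. By library size it was 1.41 (adjusted p = 0.0196). Averaged over D1 to D28, the change in CMs exceeded that in HCs by 1.41 (SE 0.37, adjusted p = 0.00130, with 28.5% called higher), and it differed from that in HCs by −0.06 (SE 0.37, adjusted p = 1.00) in ECs and by 0.15 (SE 0.37, adjusted p = 0.862) in FBs, and a change alike to that in HCs is not shown by these p-values.

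The 3p arm was detected at far lower counts. In CMs the D0 libraries had 0, 1, 0 and 1 counts of miR-21a-3p. The D1 libraries had 15, 15, 22 and 24, the D3 libraries 37, 90, 60 and 46, and the D7 libraries 23, 70, 41 and 50. All libraries from D1 on were above D0, since those of D14 had 25, 13, 13 and 41 counts and those of D28 had 3, 14, 13 and 9. This held on the TMM scale too, where 4.55%, 19%, 31.4%, 30% and 23.8% of miRNAs were wholly above D0 from D1 to D28. Summed over libraries, 2 of 53756544 mature counts were miR-21a-3p at D0 and 233 of 52839868 at D3. The ratio of summed CPM to D0 was 29.4 at D1 (95% exact interval 7.88 to 248), 119 at D3 (32.4 to 984) and 21.8 at D28 (5.64 to 186). These intervals cover counting error only. Each day was called by edgeR, with fitted log2 changes of 3.59 (adjusted p = 0.000621), 4.83 (adjusted p = 1.09e-06), 3.94 (adjusted p = 8.18e-06), 3.80 (adjusted p = 1.54e-05) and 2.55 (adjusted p = 0.00279), whose size depends on the prior count, as D0 had so few. Of 484 miRNAs tested in CMs, 13.6%, 31.8%, 38.8%, 38% and 29.5% were called higher on these days. The arm was higher at D3 than at D1 by 1.24 (adjusted p = 0.0210, with 8.26% called higher), a call lost without replicate 1 of D1 (1.08) or replicate 2 or 4 of D3 (1.08 and 1.19), and at D28 it differed from D14 by −1.25 (adjusted p = 0.0226, with 7.85% called lower), which did not stay below the threshold without replicate 1 or 3 of D14 or replicate 1 or 2 of D28 (−1.01, −1.13, −1.04 and −1.25).

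In ECs miR-21a-3p had 0, 1, 1 and 0 counts at D0, and was left out of the test within ECs by the filter on low counts. It had 4, 6, 0 and 1 counts at D1, 13, 105, 3 and 11 at D3, and 6, 20, 12 and 1 at D7. It had 0, 0, 4 and 2 at D14 and none in any library at D28, where 3 counts in all would be 0.435 CPM. On CPM and on the TMM scale, D3 and D7 were above D0 in every library. On the TMM scale this held for 24% and 19.7% of the miRNAs tested. At D7 it rested on depth, since replicate 4 had 1 count, as had replicates 2 and 3 of D0. In counts, D7 overlapped with D0. The ratio of summed CPM to D0 was 50.6 (95% exact interval 13.7 to 422) at D3 and 25.3 (6.56 to 217) at D7, and replicate 2 of D3, the deepest of its day, held 105 of that day's counts.

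In FBs no day passed the test for the 3p arm. The D0 libraries had 4.79, 1.35, 8.63 and 7.65 CPM of miR-21a-3p, and the D3 libraries had 23.7, 11.96, 9.54 and 6.27. Each later day overlapped with D0. The log2 changes by edgeR were 0.61 (adjusted p = 0.312), 0.71 (adjusted p = 0.126), 0.51 (adjusted p = 0.273), −0.10 (adjusted p = 0.873) and 0.03 (adjusted p = 0.988) at D1 to D28. The 95% interval at D3 was −0.05 to 1.47, and the change was 0.93 (adjusted p = 0.0388) without replicate 4 of D3 but 0.28 without replicate 1 of D3. By library size, D3 was called at 1.07 (adjusted p = 0.0268). In HCs the 3p arm was called higher on all 5 days, by 2.60, 3.30, 2.29, 1.46 and 1.25, beside 25.3%, 30.9%, 29.9%, 15.3% and 12.7% of 608 miRNAs called higher. The difference between FBs and HCs was tested directly: the change was smaller in FBs by a log2 difference of −1.71 (SE 0.53, adjusted p = 0.0135) at D1, −2.42 (SE 0.53, adjusted p = 0.000339) at D3 and −1.70 (SE 0.53, adjusted p = 0.0190) at D7. Of 712 miRNAs, 6.88%, 8.57% and 5.34% were called lower there. At D14 it was −1.61 (adjusted p = 0.0408, with 2.81% called lower), but 10 of 16 fits without 1 library lost that call (−1.31 without replicate 3 of FBs at D0), as did the fit with no filter on low counts (−1.34), and at D28 it was −1.32 (adjusted p = 0.130). Averaged over D1 to D28 it was −1.75 (adjusted p = 0.00225, with 5.9% called lower). With the day and replicate number as a block the average stayed called (−1.50, adjusted p = 0.0263), as did D3 (−2.10, adjusted p = 0.00486), while D1 (−1.46, adjusted p = 0.0614), D7 (−1.48, adjusted p = 0.0777) and D14 (−1.38, adjusted p = 0.201) lost their calls. The HC reference at D0 includes replicate 3, with 18286 mature counts and no 3p count. Without it and with no block, the differences were −2.05 (adjusted p = 0.00303) at D1, −2.66 at D3 and −1.82 at D7, all called.

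**Figure D2:**
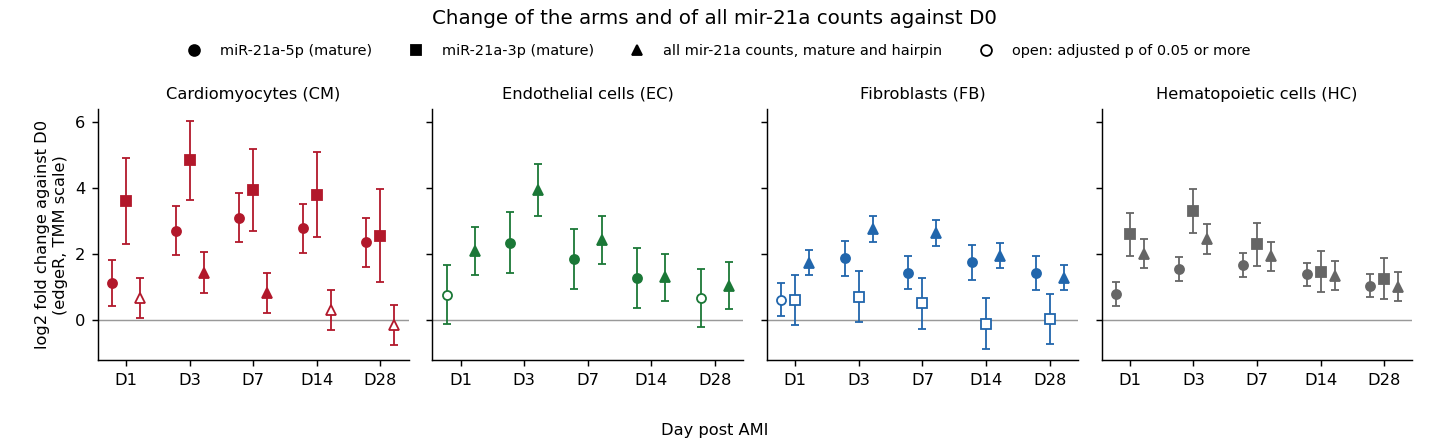
Log2 change against D0 (y axis, TMM scale, edgeR, bars 95% intervals) by day for miR-21a-5p, miR-21a-3p and all mir-21a counts in CMs, ECs, FBs and HCs; filled symbols have an adjusted p under 0.05. In FBs the 5p symbols lie at 1.43 to 1.87 from D3 on while none of the 3p symbols is filled, and the 3p arm is not drawn in ECs, where it was not tested.

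Across all libraries, mean miR-21a-3p was 27.4 CPM in HCs, 8.47 in FBs, 2.17 in CMs and 1.01 in ECs. At D0 the mean was 5.61 CPM in FBs and 3.34 in HCs, and ECs and CMs had 2 counts each in all libraries together. The HC mean includes replicate 3, which had no 3p count among only 18286 mature counts. Replicates 1, 2 and 4 of HCs had 3.74, 4.67 and 4.95 CPM, within the FB range of 1.35 to 8.63. The order of FBs and HCs at D0 was not tested. Summed over libraries, with exact intervals that cover counting error but not the spread between libraries, the 3p arm made up 5.31 of 10000 counts of both arms in FBs at D0 (95% exact interval 4.76 to 5.90) and 5.45 at D1, but 1.45 at D14 (1.31 to 1.59) and 1.96 at D28. In CMs it made up 1.70 (0.205 to 6.12) at D0, 8.49 (6.69 to 10.6) at D1, 7.28 at D3 and 2.01 at D28. In ECs it made up 0.266 (0.0322 to 0.962) at D0, 2.92 (1.46 to 5.22) at D1 and 2.54 (2.13 to 3.01) at D3, and no 3p count was found at D28. In HCs it stood at 1.22 at D0, 4.51 at D1, 4.52 at D3 and 1.53 at D28. In FBs at D0 the 4 libraries held between 3 and 151 of these counts. Changes of the log2 ratio of 5p to 3p, which needs no scaling between libraries, were tested with limma among hairpins with counts on both arms. In FBs the ratio was higher than at D0 by 0.96 (SE 0.33, adjusted p = 0.0361) at D3 and by 1.56 (SE 0.33, adjusted p = 0.00957) at D14, where 10.9% and 2.72% of 147 hairpins were called higher. The D3 call held only without replicate 2 of D0 (1.31) or replicate 1 of D3 (1.22), at 0.81 to 0.92 in the other fits without 1 library. The D14 call was lost without replicate 3 of D0 (1.40) or replicate 2 of D14 (1.46). Replicate 2 of D0 had 3 counts of the 3p arm, and without it the ratio was also called at D7 (1.01, adjusted p = 0.0210) and D28 (1.45, adjusted p = 0.00971). In CMs the ratio differed by −1.70 (adjusted p = 0.0133, with 18.2% of 99 called lower) at D1 and by −1.27 (adjusted p = 0.0361, with 33.3% called lower) at D3, but with 0 or 1 count of 3p at D0 both values were set by the pseudocount of 0.5 and turned to 0.65 and 1.27 with one of 5. The D3 value also lost its call in 5 of 8 fits without 1 library, at −1.66 to −0.69 over all 8. In HCs the ratio differed by −1.24 (adjusted p = 0.0513, with 6.58% called lower) at D1 and, without replicate 3 of D0, by −1.89 (adjusted p = 2.69e-05).

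Reads that did not match a mature sequence were aligned to hairpins, and mir-21a had many such counts. These are counts of alignments, of which there were 1.17 to 2.40 per read behind them over the 96 libraries, so their ratio to mature counts compares libraries and is no share of reads. In CMs at D0 there were 5.14, 15.4, 16.8 and 19.4 hairpin counts per mature mir-21a count. At D7 there were 0.967, 1.22, 1.13 and 1.39, at D14 0.812 to 0.970, and at D28 0.717 to 1.98, all below D0. At D1 the libraries had 22.1, 13.7, 1.73 and 3.04, so that the 2 libraries with low CPM of miR-21a-5p were those with the most hairpin counts per mature count. The log2 ratio changed by −1.96 (adjusted p = 0.0160) at D3, −3.44 (adjusted p = 0.000163) at D7, −3.84 (adjusted p = 4.48e-05) at D14 and −3.67 (adjusted p = 0.000236) at D28, tested with limma. In CMs 20.7%, 27.1%, 26.1% and 22.2% of 203 hairpins were called lower on these days, and 24.1%, 27.6%, 26.6% and 28.1% higher. The D3 call was lost without replicate 3 or 4 of D3 (−1.66 and −1.75).

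In the other cell types the ratio rose early on, and a difference from CMs was not tested. In ECs the ratio was 1.42, 1.76, 1.49 and 1.54 at D0, rose to 4.66, 4.99, 4.63 and 7.40 at D1 and to 7.38, 6.36, 6.24 and 7.03 at D3, and was 2.29 to 2.98 at D7 and 1.38 to 1.70 at D14. At D28 the EC libraries spread widely, at 1.07, 2.75, 6.38 and 2.27. The log2 change was 1.78 (adjusted p = 0.00458) at D1 and 2.12 (adjusted p = 0.000147) at D3, beside 0.452% and 1.81% of 221 hairpins called higher, so that mir-21a was the only hairpin called higher at D1. The changes of 0.68 at D7 (limma adjusted p = 0.480) and 0.72 at D28 (limma adjusted p = 0.111) were not called. The D28 change in ECs ran from 0.28 to 1.14 when 1 library was left out, and 1 such fit called it. In FBs the ratio was 1.06 to 1.75 at D0, 3.24 to 5.42 at D1, 2.55 to 4.70 at D3 and 3.29 to 5.05 at D7, all above D0, with log2 changes of 1.62 (adjusted p = 6.06e-05), 1.36 (adjusted p = 0.000160) and 1.61 (adjusted p = 4.35e-05). Of 287 hairpins in FBs, 3.14%, 26.8% and 12.5% were called higher on these days. HCs went from 1.43 to 1.73 at D0 to 3.89 to 6.32 at D1 and 2.56 to 4.74 at D3. At D28 FBs, at 0.771 to 1.32, overlapped with D0.

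**Figure D3:**
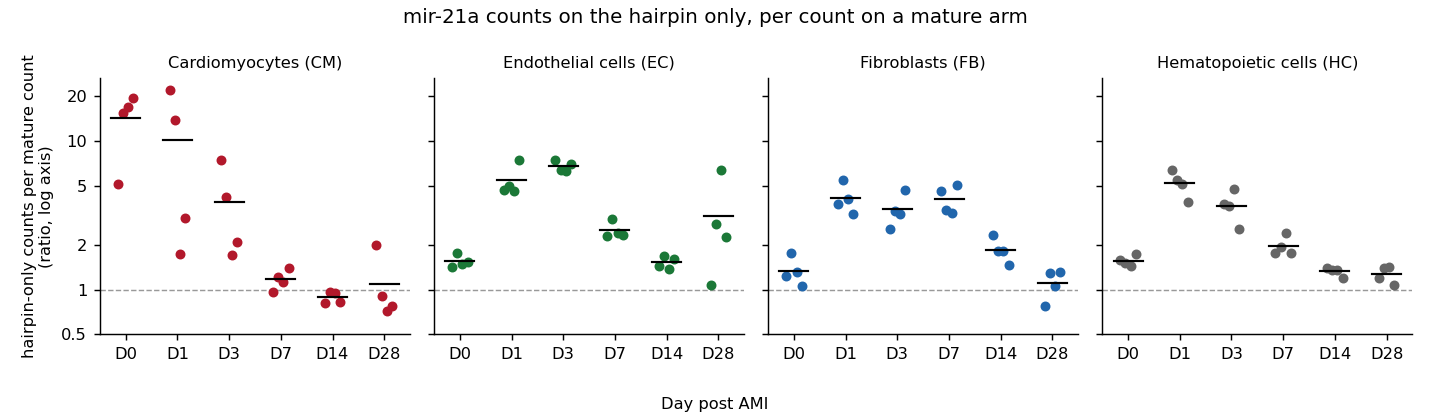
Counts on the mir-21a hairpin alone per count on a mature arm (ratio, log axis) against day post AMI, with a point for each library a short bar at each group mean and a dashed line at a ratio of 1, in CMs, ECs, FBs and HCs. CMs start at 5.14 to 19.4 and end at 0.717 to 1.98, while ECs, FBs and HCs start at 1.06 to 1.76 and peak at D1 or D3, with FBs also high at D7.

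Mature and hairpin counts of mir-21a were therefore also added together and tested over all mature and hairpin rows, a measure chosen after the data were seen. In counts per 1000000 aligned reads, a mixed unit because hairpin counts are alignments, CMs had 2593, 2152, 2213 and 2761 at D0 and 20391, 25944, 14236 and 16865 at D3. All later days were above D0 in this unit, but the share of other rows wholly above D0 in it was not counted. By library size the median log2 change of the mature miRNAs tested in CMs was itself 1.42 at D1 and 2.99 at D14. With TMM the log2 change in CMs was 0.67 (adjusted p = 0.0770) at D1, 1.44 (adjusted p = 0.000317) at D3, 0.81 (adjusted p = 0.0161) at D7, 0.29 (adjusted p = 0.362) at D14 and −0.15 (adjusted p = 0.653) at D28. With TMM, D1, D14 and D28 thus did not pass the test, but by library size they were 1.49 (adjusted p = 4.37e-05), 2.35 (adjusted p = 1.50e-08) and 1.30 (adjusted p = 1.75e-05), all called, so that the scaling set these calls and the direction at D28. A difference from the change of the mature 5p arm was not tested. D1 was called without replicate 3 of D1 (0.89, adjusted p = 0.0399), and the D7 call held only without replicate 3 of D7 (0.77, adjusted p = 0.0347), at 0.65 to 0.73 in the other fits without 1 library. Higher calls made up 19%, 34.2%, 40%, 40.7% and 29.6% of 830 rows in CMs.

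In ECs and FBs the log2 changes of the summed counts at D1 and D3 were larger than those of the 5p arm alone, a difference that was likewise not tested. ECs had 3983 to 5308 such counts at D0, 14338 to 23069 at D1 and 65396 to 77589 at D3. The log2 change in ECs was 2.10 (adjusted p = 0.00118) at D1, the lowest p of 738 rows, where 0.271% were called higher. It was 3.95 (adjusted p = 7.40e-09) at D3, 2.43 (adjusted p = 4.51e-06) at D7, 1.30 (adjusted p = 0.00940) at D14 and 1.04 (adjusted p = 0.0113) at D28, where 16.3%, 16.5%, 10.4% and 30.5% were called higher. The D28 call was lost without replicate 4 of D28 (0.40, adjusted p = 0.233). FBs had 17986 to 28931 at D0 and 159373 to 194978 at D3. The log2 change in FBs was 1.74 (adjusted p = 2.60e-07) at D1, 2.75 (adjusted p = 5.33e-11) at D3, 2.64 (adjusted p = 6.43e-11) at D7, 1.94 (adjusted p = 1.98e-08) at D14 and 1.28 (adjusted p = 3.41e-05) at D28. In FBs it held rank 1 to 4 of 1017 rows by p on these days, with 6.98%, 26.4%, 25.3%, 13.3% and 5.31% called higher. HCs changed by 2.01, 2.45, 1.92, 1.34 and 1.01, all called, beside 25.9%, 32.6%, 31.8%, 18.4% and 12.3% of 1075 rows.

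The level of miR-21a-5p in other cells was set beside miRNAs that mark leukocytes and fibroblasts, since HCs and FBs hold more of it. In bulk samples, fewer cells of a type and less RNA per cell cannot be told apart. Mean miR-21a-5p in CMs was 0.648% of that in HCs at D0 and 1.72%, 4.04%, 6.97%, 8.59% and 4.73% of it on the 5 days after AMI. Over these days the leukocyte miRNAs miR-142a-3p and miR-223-3p were at 0.0284% to 0.344% and 0.0116% to 0.594% of their level in HCs, while miR-150-5p was at 1.09% to 4.97% and miR-342-3p at 0.785% to 7.09%. The summed leukocyte list (5 miRNAs, with miR-142a-5p) in CMs went from 15.1 to 82.1 CPM at D0 to 187 to 330 CPM at D7, and 3, 4, 4, 4 and 4 of the 5 were called higher at D1 to D28, none lower, beside 13.6%, 31.8%, 38.8%, 38% and 29.5% of all miRNAs called higher. Its median log2 change was 1.95, 3.15, 2.73, 1.73 and 1.26. The largest part of the sum in CMs at D7 was miR-150-5p, at a mean of 171 CPM beside 31.8 for miR-142a-3p. The fibroblast list in CMs went from 36.5 to 114 CPM at D0 to 1029 to 2344 at D7 and 1358 to 2188 at D14, with 1, 3, 3, 3 and 3 of the 3 called higher beside the same shares, and miR-199a-3p there was at 0.0900% to 2.58% of its level in FBs, against 2.04% to 27.1% for miR-21a-5p. The endothelial miR-126a arms in CMs summed to 4423 to 9789 CPM at D0 and 19277 to 27651 CPM at D14. Called higher at D1 to D28 were 0, 1, 1, 1 and 1 of the 2 arms, beside the same shares. Called lower were 0, 0, 1, 1 and 0, beside 11.4%, 23.3%, 30.2%, 29.1% and 24.8% of all miRNAs. The part of leukocytes, fibroblasts and endothelial cells in the CM result was not tested.

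**Figure D4:**
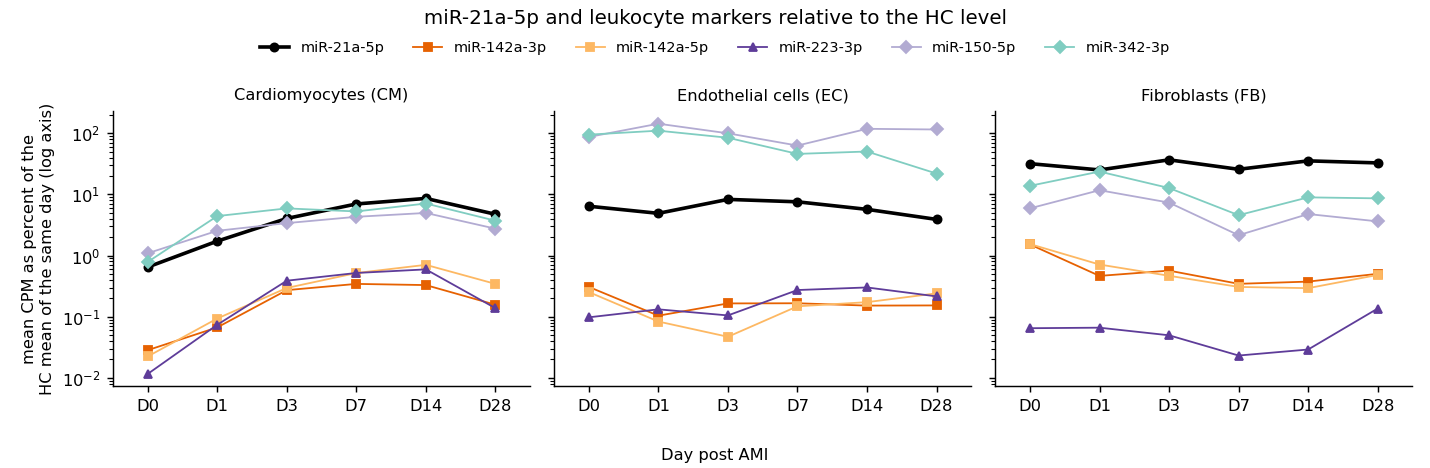
Mean CPM as a percentage of the mean in HCs of the same day (log axis) for miR-21a-5p and the 5 leukocyte miRNAs, by day, in CMs, ECs and FBs. In FBs miR-21a-5p lies at 25.1% to 36.7% while both miR-142a arms lie at 0.293% to 1.54% and miR-342-3p at 4.57% to 23.6%, and in ECs miR-150-5p lies above miR-21a-5p on each day.

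In ECs miR-21a-5p was at 3.90% to 8.28% of its level in HCs, above the miR-142a arms (0.0470% to 0.307%) and miR-223-3p (0.0978% to 0.301%) and below miR-150-5p (62.8% to 143%) and miR-342-3p (21.9% to 110%). The leukocyte list summed to 1059 to 4905 CPM in ECs, and 0, 1, 1, 0 and 0 of 5 were called higher at D1 to D28, where 0%, 15.4%, 17.8%, 11.4% and 26.8% of all miRNAs were. Most of the sum was miR-150-5p, with a mean of 2370 CPM at D0, where miR-142a-3p had 10.1. Lower calls in ECs made up 0%, 2.14%, 4.75%, 3.09% and 20.2%. The fibroblast list in ECs went from 2016 to 2845 CPM at D0 to 6872 to 11141 at D7, with 0, 1, 3, 2 and 2 of 3 called higher. Relative to FBs, miR-21a-5p in ECs was at 20.2% at D0, 29.4% at D7 and 11.9% at D28. On these days miR-199a-3p was at 4.5%, 20.1% and 8.86%, and miR-199a-5p at 4.03%, 11.7% and 5.13%. For miR-214-3p the values were 7.05%, 25.3% and 15.4%, above miR-21a-5p at D28 and also at D14 (17% against 16.1%). In FBs miR-150-5p was at 2.15% to 11.7% of its level in HCs, miR-342-3p at 4.57% to 23.6% and miR-223-3p at 0.0232% to 0.136%, and at D1 miR-342-3p (23.6%) was close to miR-21a-5p (25.1%). The leukocyte list in FBs summed to 122 to 426 CPM, with none called higher and 3, 2 and 1 called lower at D7, D14 and D28. Lower calls made up 2.13%, 20.1%, 21.1%, 10.3% and 1.95% of all miRNAs in FBs at D1 to D28. No marker was at 0 in all libraries of a group. The part of other cells in the EC and FB results was not tested.

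In each cell type the miRNAs most like miR-21a-5p over its 24 libraries were sought among miRNAs whose mean reached 100 CPM, as a description without a test. In CMs they were miR-199a-3p and miR-199b-3p, which have identical counts (Pearson's r 0.969, Spearman's rho 0.85, of 112 candidates), and miR-199a-5p (r 0.960). In ECs they were miR-199a-5p (r 0.873), miR-199b-5p (r 0.872) and miR-34c-5p (r 0.856), of 151. In FBs they were miR-34c-5p (r 0.861), miR-146b-5p (r 0.759) and miR-34b-5p (r 0.717), of 154. Leaving out the 2 libraries farthest from the median left r at 0.948, 0.825 and 0.741 for the first named of each. miR-21a-3p had r of 0.678 with miR-21a-5p in CMs and 0.426 in FBs, and the latter was 0.0436 without the 2 farthest libraries, so that it rested on them. Libraries of one day share the time since AMI, so they are not independent points in these correlations. Their depth was not shared, and in ECs at D3 it ran from 1698800 to 29037628 mature counts.

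Among 20 miRNAs known from cardiac injury, inflammation or fibrosis, 7, 11, 14, 14 and 14 were called higher in CMs at D1 to D28 and 0, 0, 2, 3 and 0 lower. Of all miRNAs in CMs, 13.6% to 38.8% were called higher and 11.4% to 30.2% lower on these days, so that calls of single members are read against high shares. They include miR-29b-3p, which represses collagens (log2 change 4.34 at D7), and miR-208b-3p, encoded in the slow myosin gene (4.31 at D14), while miR-146b-5p differed by −1.07 at D14. In ECs, of 19 tested, 0, 4, 4, 1 and 2 were called higher and 0, 0, 1, 1 and 8 lower, beside 0% to 26.8% and 0% to 20.2% of all miRNAs, such as miR-214-3p at D7 (1.75) and miR-29b-3p at D28 (−2.64). In FBs, of 19 tested, 4, 6, 5, 4 and 3 were called higher and 0, 3, 6, 5 and 0 lower, beside 4.8% to 24.5% and 1.95% to 21.1% of all miRNAs. There miR-155-5p, a miRNA of inflammatory signalling, changed by 2.87 at D3, miR-146b-5p by 1.72 at D7 and miR-29b-3p by −2.27 at D14. The median change of this list in FBs was 0.04, 0.20, −0.13, 0.09 and 0.03, beside medians of all miRNAs of 0.00, 0.06, −0.07, −0.01 and 0.02.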

How the data were processed

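Small RNA of 96 libraries was sequenced. Per the submitters' notes and the paper's methods, the nf-core smrnaseq pipeline was used with Trim Galore, Bowtie2 and SAMtools, reads under 18 nt were removed, and the rest were aligned to mature sequences of miRBase 21, as the paper names it, and then, where unaligned, to hairpins. The tables list 1978 mature and 1234 hairpin names, and whether these are of that release was not settled. The deposited values are raw counts per mature miRNA and per hairpin, which the authors did not normalize. Hairpin counts are alignments. The row of reads unaligned to a mature miRNA, 25.6% to 83.0% of reads, was left out of all tests. It served only to find the number of aligned reads and of hairpin alignments per read. Depth was 18286 to 65588543 mature counts per library, and counting error is largest for the 3p arm.

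Groups came from the labels, and all 96 libraries were kept, although the paper left out 3 that it does not name. The members, marker lists and tests were chosen with earlier results of these data known. Changes were tested with edgeR 4.0.16 in R 4.3.3 (quasi-likelihood, TMM, filterByExpr, days as groups) on the 24 libraries of a cell type, and differences between cell types on all 96 libraries. Adjustment (Benjamini-Hochberg, threshold 0.05) covered all miRNAs tested. Ratios (5p to 3p, hairpin to mature) were tested with limma 3.58.1 with a pseudocount of 0.5, for hairpins whose mean reached 10 counts for numerator and denominator alike. Alternatives were scaling by library size, testing without the filter, DESeq2 1.42.0, compared days alone, the replicate block, a pseudocount of 5 and each library left out. Named miRNAs were the members, their family, marker lists (leukocyte, cardiomyocyte, endothelial, fibroblast, erythroid, mural), 20 injury miRNAs with their largest changes, and the 3 miRNAs most alike per cell type. Scripts were tested on simulated data.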

Additional observations from a re-analysis of the deposited data

Results flagged for a closer look

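Libraries that stood far from the other 3 of their group were sought in the 24 groups of 4 on each of 4 measures. Of these 96 checks 6 found one, where chance gives about 1 in 20. For CPM of miR-21a-5p these were replicate 1 of CMs at D0, at 499.5 beside 142 to 161, and replicate 4 of HCs at D28, at 102486 beside 81570.1 to 83873. For hairpin counts per mature count they were replicate 1 of CMs at D28 (1.98 beside 0.717 to 0.901), replicate 4 of ECs at D1 (7.40 beside 4.63 to 4.99) and replicate 2 of ECs at D7 (2.98 beside 2.29 to 2.40). For all mir-21a counts per 1000000 aligned reads it was replicate 4 of HCs at D7 (336045 beside 262270.0 to 271321).

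Changes since D0 that differed between cell types by a test of the difference itself concerned CMs and FBs, each against HCs (edgeR, adjusted p-values in the text above). For miR-21a-5p the change in CMs exceeded that in HCs by a log2 difference of 1.63, 1.77, 1.57 and 1.38 from D3 to D28, and by 1.41 (adjusted p = 0.00130, where 28.5% of miRNAs were called higher and the median was 0.74) over D1 to D28. For miR-21a-3p the difference between CMs and HCs was 2.61 at D14 (adjusted p = 0.0378, with 22.2% called higher), from 1 count or none at D0 in CMs, and 9 of 16 fits without 1 library lost the call. For miR-21a-3p the change in FBs was below that in HCs by −1.71 at D1, −2.42 at D3, −1.70 at D7 and −1.61 at D14, and by −1.75 (adjusted p = 0.00225, where 5.9% were called lower and the median was 0.07) over D1 to D28. With the day and replicate number as a block, D3 (−2.10) and the mean (−1.50) stayed called by edgeR, and D1 (−1.46), D7 (−1.48) and D14 (−1.38) did not.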

How the results depend on the processing

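The calls on miR-21a-5p at D3 to D28 in CMs, at D3 and D7 in ECs and at D3 to D28 in FBs kept their direction and their side of the threshold under every alternative run. Values below are log2 changes or differences unless named as p. By library size alone, FBs gave 0.80 for 5p at D1, 1.07 for 3p at D3, −0.10 for 3p at D28, −0.046 for 3p at D28 against D14 and an adjusted p of 0.0175 for 3p over all 6 days (edgeR). It gave 0.087 for 3p in CMs at D14 against D7, 0.76 and 0.0084 for hairpin counts in CMs at D14 and D28, 1.30 for all mir-21a counts in CMs at D28, −0.019 for 5p in HCs at D7 against D3, −0.85 for the 5p level of CMs minus ECs, 2.89 for the mean 3p change of CMs minus HCs, and −0.34 at D1 and −0.048 on average for the 5p change of FBs minus HCs. Library size without the most abundant miRNA gave, in FBs, 0.80 for 5p at D1, 1.05 for 3p at D3, −0.095 at D28, −0.038 at D28 against D14 and an edgeR adjusted p of 0.0188 over all days, and −0.025 for 5p in HCs at D7 against D3. With no filter, FBs gave 0.71 for 5p at D1, 0.81 for 3p at D3, 0.0090 for 3p at D14 and an edgeR adjusted p of 0.0103 over all days, and the 5p change minus that in HCs was −0.013 for ECs at D7 and −0.31 for FBs at D1. DESeq2 gave −0.11 for the former, −0.50 for the latter and −0.015 for the mean of FBs minus HCs, and another TMM reference library, chosen after seeing the data, gave −0.32 for FBs minus HCs at D1. With only the days compared, 5p in CMs at D1 was 1.24 (edgeR adjusted p = 0.0989), 3p in FBs was 0.043 at D14 and −0.0063 at D28, 5p in HCs at D7 against D3 was −0.061, and the arm ratio lost its calls in CMs at D1 (−1.70) and D3 (−1.27) and in FBs at D3 (0.96) and D14 (1.56). A pseudocount of 5 gave arm ratios of 0.65, 1.27, 2.60, 2.22 and 2.76 in CMs at D1 to D28, 0.0041, 0.91 and 1.39 in FBs at D1, D7 and D28, and 0.76 in HCs at D7.

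The paper describes the cell types of a day as taken from matched animals, but the sources do not say that a replicate number marks one set of animals, and the median correlation of deviations between cell types of one day was −0.02 to 0.04. A replicate block ended the calls on the 3p change of FBs minus HCs at D1 (−1.46), D7 (−1.48) and D14 (−1.38), on 5p in ECs at D14 (1.29, edgeR adjusted p = 0.0514) and on all mir-21a counts in HCs at D14 against D7 (−0.58), and brought the arm ratio in HCs at D1 (−1.24) below the threshold (limma adjusted p = 0.0478). Leaving out 1 library at a time gave 0.86 to 1.75 for 5p in CMs at D1, 1.02 to 1.52 and −0.085 to 1.00 for 5p in ECs at D14 and D28, −0.069 to 0.19 for 5p in HCs at D7 against D3, and −0.34 to 0.11 for 3p in CMs at D14 against D7. For 3p in FBs it gave 0.28 to 0.99 at D3, −0.35 to 0.18 at D14, −0.17 to 0.31 at D28, −0.36 to 0.33 at D3 against D1, −0.43 to 0.29 at D7 against D3 and −0.092 to 0.38 at D28 against D14. Against HCs it gave −0.51 to −0.080 for the 5p change of FBs at D1 (the fits differ in the TMM reference library), −0.096 to 0.17 for its mean, −0.11 to 0.28 for 5p of ECs at D7, −0.35 to 0.043 for its mean, −0.17 to 1.38 for 3p of ECs at D14 and −0.13 to 0.83 for its mean. For the arm ratio it gave −1.66 to −0.69, −0.29 to 0.68, −0.52 to 0.45 and 0.36 to 1.32 in CMs at D3 to D28, −0.48 to 0.031, 0.81 to 1.31, 0.51 to 1.01, 1.40 to 1.90 and 0.86 to 1.45 in FBs at D1 to D28, and −0.74 to 0.16, −0.15 to 0.75 and −0.31 to 0.59 in HCs at D7 to D28. The hairpin ratio in ECs at D14 ran from −0.074 to 0.040. The arm ratio in CMs at a mean of 50 counts could not be fitted. Where not named above, the cause was not tested. Depth limits the 3p arm in CMs and ECs, at 0 or 1 count per library at D0.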

Other observations

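Other marker lists also had called members. For comparison, of all miRNAs in CMs 11.4% to 30.2% were called lower on a day and 13.6% to 38.8% higher. In CMs 1 of the 2 mural miRNAs, miR-143-3p and miR-145a-5p, was called lower on each of the 5 days, and the median log2 change of the list was −0.72 at D1 and −1.95 at D14. In ECs 1 of the 2 was called lower at D7 and at D28, beside 4.75% and 20.2% of all miRNAs, and in FBs 1 was called lower at D1, D3 and D7, beside 2.13%, 20.1% and 21.1%. Of the 3 erythroid miRNAs (miR-451a, miR-144-3p and miR-486a-5p), 2 were called higher and 1 lower in CMs at D3, D7 and D14. Of the 4 cardiomyocyte miRNAs, 3 and 4 were called lower in ECs at D14 and D28, beside 3.09% and 20.2% of all miRNAs, with median log2 changes of −1.38 and −2.01. Their summed level in ECs was 75957 to 134289 CPM at D0 and 21002 to 80702 CPM at D28. In FBs 1 of 3 erythroid miRNAs was called lower at each of D7, D14 and D28, beside 21.1%, 10.3% and 1.95% of all miRNAs, with a median of −1.56 at D28. Of the 2 endothelial miRNAs, none was called on any day in FBs, and 1 was called lower in ECs at D28.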
